A study of Rattus norvegicus with 12 samples.

Results

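The genes described here encode enzymes of cholesterol synthesis, measured in 2 organs, liver and renal cortex, of rats dosed with trichloroethylene (TCE), a chlorinated solvent oxidised in the liver. They were taken as every probe set, that is every group of short oligonucleotides that reads 1 transcript on the array, whose platform annotation gives a single symbol among 7 listed genes. That rule found 7 probe sets, for 6 genes, among the 31099 probe sets of the table. Pmvk, Mvd, Fdps, Sqle and Dhcr7 had 1 probe set each and Lss had 2, and Hmgcs1 was not analysed here. The 4 groups were liver of TCE rats, liver of control rats, renal cortex of TCE rats and renal cortex of control rats, with 3 arrays in each and 12 in all. TCE was given by mouth in corn oil for 3 days at 16 mg/kg per day (5 ml/kg), control rats received the oil alone, and tissue was taken 24 h after the last dose. All 6 rats were males of 7 to 9 weeks and 190 to 240 g, labelled both as Wistar-derived and as strain F-344. In pieces of whole tissue, fewer cells of a type and less RNA per cell cannot be told apart.

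Cholesterol is built from acetyl-CoA through mevalonate, isoprene diphosphates, squalene and lanosterol. When sterols are scarce in the endoplasmic reticulum, the escort protein Scap carries the transcription factor SREBP-2 to the Golgi, where proteases release its active part, which enters the nucleus and raises transcription of nearly every enzyme of the pathway. When sterols are plentiful, the Insig proteins hold Scap back. Liver is a main site of this synthesis and also exports cholesterol in lipoproteins and bile.

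The members act at 6 steps. Pmvk phosphorylates phosphomevalonate and Mvd then decarboxylates the product to isopentenyl diphosphate. Fdps joins isoprene units to farnesyl diphosphate. Sqle puts an oxygen on squalene, and Lss folds the product into lanosterol, the first sterol. Dhcr7 reduces 7-dehydrocholesterol to cholesterol, the last step of one branch.

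Promoters are shown for the 4 measured members that had a promoter sequence at hand. These were Fdps, Dhcr7 and Lss, which mostly stood lower in TCE livers, and Mvd, which stood higher there. Pmvk and Sqle had none at hand. Each is the 250 bases before the RefSeq start of the gene in rat assembly GRCr8, written 5′ to 3′ along the gene. Fdps is chr2:176804817-176805066 on the minus strand, Dhcr7 chr1:208444184-208444433 on the plus strand, Lss chr20:12118231-12118480 on the minus strand and Mvd chr19:67414975-67415224 on the minus strand. Capitals mark matches, on either strand, to the CCAAT box (CCAAT), bound by NF-Y, and the GC box (GGGCGG), bound by Sp1, both of which work beside SREBPs at sterol genes.
Fdps: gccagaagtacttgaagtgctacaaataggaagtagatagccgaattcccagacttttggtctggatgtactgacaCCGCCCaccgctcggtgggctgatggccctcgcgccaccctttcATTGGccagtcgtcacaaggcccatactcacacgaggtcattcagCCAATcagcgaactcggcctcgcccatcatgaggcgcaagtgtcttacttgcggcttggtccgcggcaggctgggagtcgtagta
Dhcr7: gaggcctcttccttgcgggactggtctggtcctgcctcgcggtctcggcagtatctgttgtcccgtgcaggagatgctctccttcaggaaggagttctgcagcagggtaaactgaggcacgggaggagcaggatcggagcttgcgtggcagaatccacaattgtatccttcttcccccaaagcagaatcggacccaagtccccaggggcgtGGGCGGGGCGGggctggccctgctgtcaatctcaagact
Lss: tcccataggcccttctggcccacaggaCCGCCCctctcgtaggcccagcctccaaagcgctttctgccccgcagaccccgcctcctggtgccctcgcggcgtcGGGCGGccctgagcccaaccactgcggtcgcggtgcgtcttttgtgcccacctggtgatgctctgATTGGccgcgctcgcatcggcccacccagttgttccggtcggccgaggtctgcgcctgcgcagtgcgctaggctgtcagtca
Mvd: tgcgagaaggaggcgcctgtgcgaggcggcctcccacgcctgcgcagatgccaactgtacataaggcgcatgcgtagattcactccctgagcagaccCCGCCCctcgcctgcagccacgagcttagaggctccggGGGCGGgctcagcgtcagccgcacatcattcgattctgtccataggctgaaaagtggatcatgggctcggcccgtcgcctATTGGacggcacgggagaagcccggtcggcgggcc
Fdps held 2 CCAAT boxes, Lss and Mvd 1 each and Dhcr7 0. The GC box occurred once in Fdps and 2 times each in Lss, Mvd and Dhcr7, where both matches share a base. Of 33469 promoter windows of the same length, 34% held CCAAT and 30.5% held GGGCGG. The sterol element TCACNCCAC and the E-box CACGTG, searched on both strands, occurred in 0.974% and 5.59% of windows and in 0 of the 4 printed here. Lss and Mvd, which averaged lower and higher in TCE livers, held the same number of each box, while Dhcr7 differed from both in its CCAAT count.

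In liver, 4 of the 6 genes averaged lower and 2 higher in TCE rats than in controls, where 45.6% of all tested probe sets were lower and 53.8% higher. Pmvk, Fdps and Dhcr7 lay lower in every TCE liver than in every control liver, Mvd lay higher in every TCE liver, and Sqle and the brighter probe set of Lss overlapped. None of the 7 probe sets passed limma's test over all 18610 probe sets, of which 0% passed (0 at an adjusted p under 0.05, against 2564 at an unadjusted p under 0.05). The median log2 difference over the 6 genes was -0.48, against 0.02 over all probe sets tested. All values are on the log2 scale of the deposited table.

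Pmvk had 9.51, 9.81 and 9.43 in TCE livers, against 10.77, 10.15 and 10.01 in control livers. The groups did not overlap, and control replicate 1 stood highest. The log2 difference was -0.72 ± 0.23 (SE, n = 3 each; limma adjusted p = 0.291). Fdps, the brightest of the members in liver, had 11.58, 12.11 and 11.84 in TCE livers, against 12.83, 12.14 and 12.40 in control livers. TCE replicate 2 came within 0.04 of control replicate 2, so that the groups only just parted. The difference was -0.62 ± 0.23 (SE; limma adjusted p = 0.333).

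Dhcr7 had 10.52, 10.81 and 10.47 in TCE livers, against 11.73, 11.17 and 11.18 in control livers. The groups were apart, with all 3 control livers above 11. Its difference, -0.76 ± 0.19 (SE), had the smallest p of the members, with a limma adjusted p of 0.237, and rank 773 of 18610 by p. With the spread taken from all 12 arrays, Dhcr7 passed in liver at the same -0.76 (limma adjusted p = 0.0393).

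Lss was read by 2 probe sets that both averaged lower in TCE livers. The brighter, 1372973_at, had 8.26, 8.92 and 8.80 in TCE livers, against 9.51, 8.68 and 8.79 in control livers. Only TCE replicate 1 lay below every control and only control replicate 1 above every TCE liver, and the difference was -0.33 ± 0.29 (SE; limma adjusted p = 0.653). The dimmer, 1368086_a_at, had 6.37, 6.68 and 6.47 in TCE livers, against 7.42, 6.70 and 7.17 in control livers. Here the groups parted by the 0.02 between TCE replicate 2 and control replicate 2, with a difference of -0.59 ± 0.21 (SE; limma adjusted p = 0.317).

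Mvd, which acts directly after Pmvk, had 7.41, 8.22 and 7.97 in TCE livers, against 7.21, 6.83 and 7.19 in control livers. Every TCE liver was above every control liver. The difference was 0.79 ± 0.24 (SE; limma adjusted p = 0.28), or 1.73-fold. Sqle, a flux-controlling enzyme of the sterol branch, had 6.98, 8.04 and 7.84 in TCE livers, against 7.41, 6.59 and 7.44 in control livers. TCE replicates 2 and 3 were above all controls but TCE replicate 1 was not, and the difference was 0.47 ± 0.37 (SE; limma adjusted p = 0.617). For Sqle it ran from 0.19 without control replicate 2, and 0.27 without TCE replicate 2, to 0.79 without TCE replicate 1.

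Thus 5 of the 7 probe sets separated the 3 TCE from the 3 control livers, 4 of them lower and 1 higher, where 19.2% of all tested probe sets did so, 8.8% lower and 10.4% higher. At an unadjusted p under 0.05 the count was 5 of 7 against 13.8% of all. Control replicate 1 was the highest liver on 5 of the 7 probe sets, and without it the median over the genes was -0.25. Without it Pmvk had -0.49, Fdps -0.43, Dhcr7 -0.57 and Mvd 0.85. The brighter Lss probe set had -0.08 without control replicate 1 and -0.13 without TCE replicate 1.

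**Figure D1:**
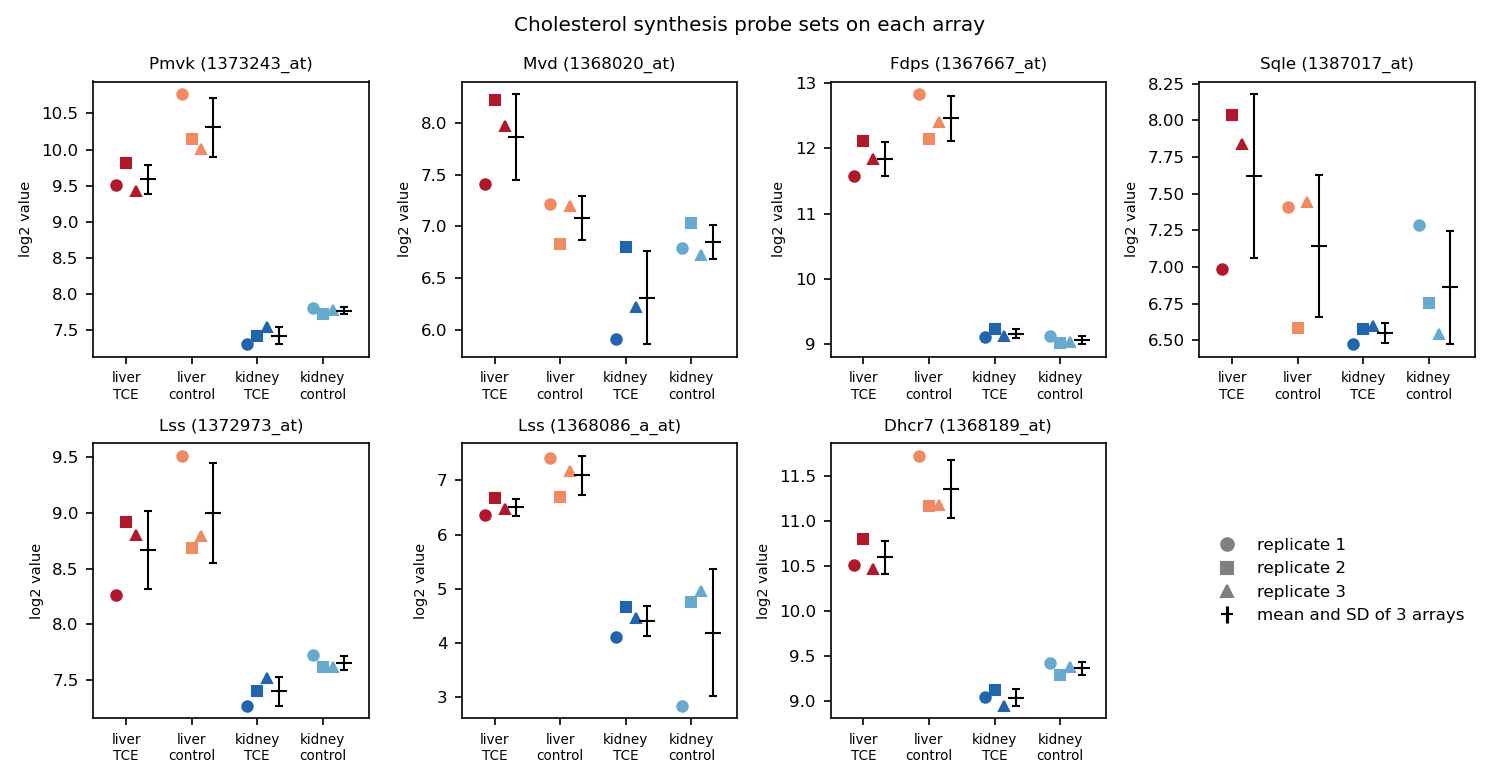
Log2 value of each member probe set on each array, with 1 panel per probe set; symbols are replicates and bars the mean and SD of 3 arrays. Pmvk, Fdps and Dhcr7 lie lower in all 3 TCE livers than in all 3 control livers, Mvd lies higher, and on every panel the vertical scale differs.

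In renal cortex, 5 of the 6 genes averaged lower in TCE rats and Fdps averaged higher, where 48.9% of all tested probe sets were lower and 50.7% higher. Each of the 7 probe sets differed by less than in liver, sign aside. Pmvk, Dhcr7 and the brighter Lss probe set lay lower in every TCE kidney than in every control kidney. None of the 7 probe sets passed limma's test over all 18609 probe sets, of which likewise 0% passed (0 at an adjusted p under 0.05, against 2697 at an unadjusted p under 0.05). The median log2 difference over the 6 genes was -0.32, against 0.00 over all probe sets tested.

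Pmvk had 7.30, 7.42 and 7.54 in TCE kidneys, against 7.80, 7.72 and 7.78 in control kidneys. The control kidneys were tightly grouped and all above the TCE kidneys. The difference was -0.35 ± 0.08 (SE, n = 3 each; limma adjusted p = 0.214). Dhcr7 had 9.04, 9.12 and 8.94 in TCE kidneys, against 9.42, 9.29 and 9.37 in control kidneys. Again the groups were apart, with a difference of -0.32 ± 0.07 (SE; limma adjusted p = 0.218). The brighter Lss probe set had 7.27, 7.40 and 7.52 in TCE kidneys, against 7.73, 7.62 and 7.62 in control kidneys. The lowest controls lay 0.10 above the highest TCE kidney, and the difference was -0.26 ± 0.08 (SE; limma adjusted p = 0.284).

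Mvd had 5.91, 6.80 and 6.22 in TCE kidneys, against 6.79, 7.03 and 6.72 in control kidneys. TCE replicate 2 lay among the controls and the other two TCE kidneys below them, and the difference was -0.54 ± 0.24 (SE; limma adjusted p = 0.394). Without TCE replicate 1 it was -0.34, and without TCE replicate 2 it was -0.78. Sqle had 6.47, 6.58 and 6.60 in TCE kidneys, against 7.28, 6.75 and 6.54 in control kidneys. Control replicate 1 stood highest and the groups overlapped, with a difference of -0.31 ± 0.20 (SE; limma adjusted p = 0.511) that was -0.10 without that array.

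Fdps had 9.11, 9.24 and 9.13 in TCE kidneys, against 9.13, 9.01 and 9.03 in control kidneys. All 6 values lay close together and the groups overlapped, with a difference of 0.10 ± 0.06 (SE; limma adjusted p = 0.504). The dimmer Lss probe set had 4.12, 4.66 and 4.46 in TCE kidneys, against 2.85, 4.76 and 4.97 in control kidneys. Control replicate 1 was near the lowest value of the table, 2.17, and set the sign of the difference, which was 0.22 ± 0.60 (SE) with that array and -0.45 without it.

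In kidney, 3 of the 7 probe sets separated the groups, all 3 lower in TCE rats, where 19.5% of all tested probe sets did so and 8.8% lay lower. At an unadjusted p under 0.05 the count was likewise 3 of 7, against 14.5% of all. Pmvk, Dhcr7 and the brighter Lss probe set were the 3 that averaged lower in both tissues. Of the other four, 2 were higher in TCE livers and lower in TCE kidneys and 2 the reverse.

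RNA of hepatocyte markers varied among the kidneys. Of 8 such markers 6 were tested there, and 5 averaged lower in TCE kidneys, with a median log2 difference of -1.53 over the 6 and 0 past limma's test. Cyp2e1 went the other way, at 0.82 ± 0.20 (SE; limma adjusted p = 0.239). It had 12.63, 12.50 and 12.69 in TCE kidneys, against 11.81, 12.16 and 11.40 in control kidneys. Those groups did not overlap, as in 19.5% of all tested probe sets. Alb, serum albumin, had 10.96, 4.36 and 6.31 in TCE kidneys, against 9.89, 12.80 and 7.84 in control kidneys, so that the groups overlapped and control replicate 2 stood highest. The median over the 8 markers was 3.52, 2.31 and 2.46 in TCE kidneys, against 3.78, 6.51 and 2.51 in control kidneys. Without control replicate 2 the kidney differences were -0.37 for Pmvk, -0.36 for Dhcr7 and -0.27 for the brighter Lss probe set. With all 6 kidneys they were -0.35, -0.32 and -0.26. The part of hepatocyte RNA in the member differences was not tested.

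**Figure D2:**
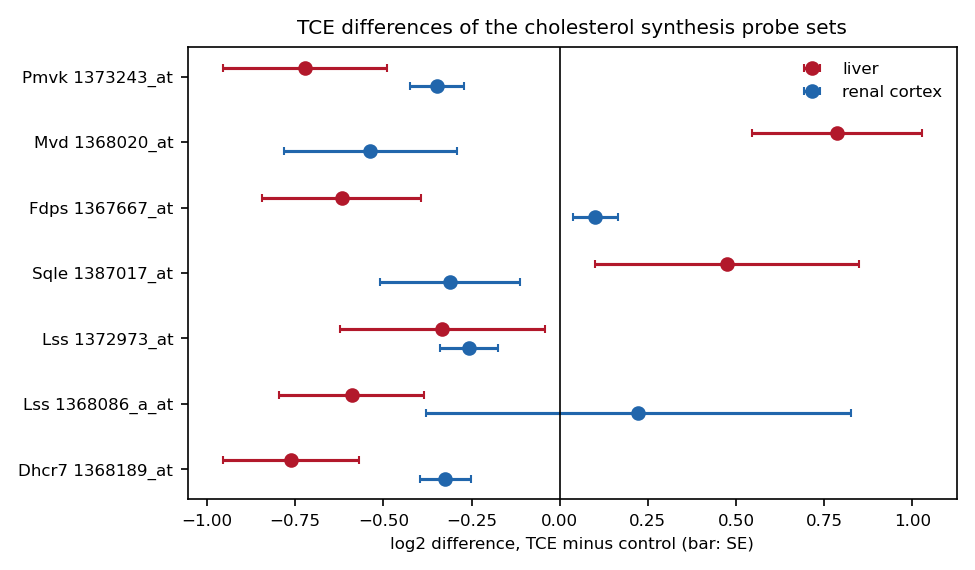
Log2 difference of TCE minus control for each member probe set, in liver and in renal cortex, with the SE as a bar. Pmvk and Dhcr7 lie left of 0 in both tissues (-0.72 and -0.35, -0.76 and -0.32), while Mvd is at 0.79 in liver and -0.54 in renal cortex.

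Whether TCE rats differed from controls by unlike amounts in both tissues was tested over all 12 arrays. Mvd had the largest gap between tissues, with a liver difference 1.32 ± 0.36 (SE) log2 units above the kidney difference. It did not pass limma's test over 18609 probe sets (adjusted p = 0.101), of which 1.06% passed. Of 10 other settings it passed in 1, array weights (1.56, limma adjusted p = 0.0474), where the count over all probe sets rose from 198 to 448. Of 12 fits without a single array it passed in 1, without kidney TCE replicate 2 (1.57, limma adjusted p = 0.0496). In the rest Mvd did not pass, with values down to 1.12 and limma adjusted p up to 0.944. The liver difference of Fdps lay 0.72 ± 0.24 (SE) log2 units below its kidney difference (-0.72, limma adjusted p = 0.176). Sqle had 0.78 ± 0.44 and Dhcr7 -0.44 ± 0.22 (SE; limma adjusted p = 0.383 and 0.33). Pmvk had -0.37 ± 0.26 and the Lss probe sets -0.08 ± 0.31 and -0.81 ± 0.66 (SE; limma adjusted p from 0.479 to 0.929). Without liver control replicate 1 the Pmvk value was -0.14, and without kidney control replicate 1 that of the dimmer Lss probe set was -0.14 as well, against -1.20 without kidney control replicate 3. In this comparison 0 of the 7 members passed and 2, Mvd and Fdps, had an unadjusted p under 0.05, against 17.7% of all probe sets.

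The 6 genes did not all differ the same way between TCE and control livers. Deviations from the group means were positively correlated for all pairs of genes, but weakly for Pmvk with Sqle (r = 0.33) and Pmvk with Mvd (r = 0.39). With each group's mean removed, Pearson's r over the 6 livers lay between 0.33 and 0.98 for all 15 gene pairs, with a median of 0.81. With the group means left in, it ran from -0.58, for Mvd with Dhcr7, to 0.99, for Pmvk with Dhcr7. Mvd and Sqle kept to each other either way (r = 0.97 with group means removed and 0.88 with them). TCE replicate 1 was below the mean of the 6 livers on all 6 genes, and control replicate 1 was above it on 5. In kidney the same pairs gave r from -0.18 to 0.95, with a median of 0.31, when group means were removed. These values describe 6 arrays a tissue, in which all genes share the array, its RNA and its labelling.

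**Figure D3:**
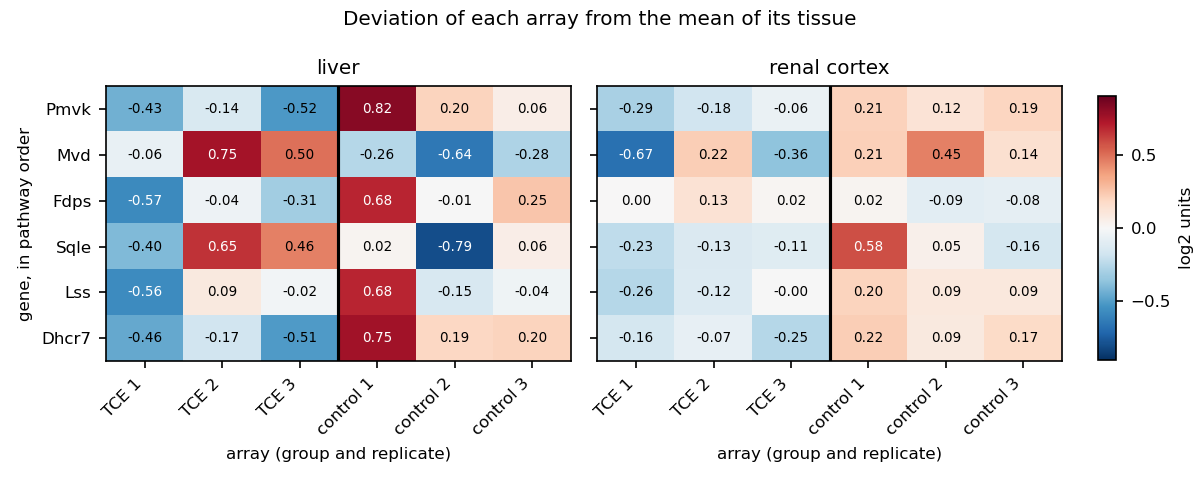
Deviation of each array from the mean of the 6 arrays of its tissue, in log2 units, for the representative probe set (highest mean) of each gene in pathway order; red is above and blue below. In liver, Mvd and Sqle are above the mean in TCE replicates 2 and 3 (0.75 and 0.50, 0.65 and 0.46), where Pmvk and Dhcr7 are below it.

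Genes whose level followed the median of the 6 genes most closely over the 6 livers were Sorbs3 (Pearson r = 0.994), Mrpl3 (0.992), Snx5 (0.988), Tomm6 (0.987) and Psmd9 (0.979). Over the 6 kidneys they were Pfkl, the liver-type phosphofructokinase (0.997), Mdc1 (0.995), Map4 (0.992), Btbd2 (0.990) and Rpl18 (0.988). They were drawn from 10540 and 10553 genes, of which 1% and 2.59% had r above 0.9 with so few arrays.

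Without TCE, all 7 probe sets averaged higher in liver than in renal cortex, where 45.3% of all tested probe sets did, and 5 passed limma's test over 18609 probe sets, of which 61.9% passed, 26.8% higher in liver and 35.1% lower. Fdps averaged 12.46 ± 0.35 in control livers and 9.06 ± 0.06 in control kidneys (SD, n = 3 each), and the gap of 3.40 ± 0.18 log2 units (SE), or 10.6-fold, passed (limma adjusted p = 3.19e-05). Pmvk averaged 10.31 ± 0.41 in control livers and 7.77 ± 0.05 in control kidneys (SD), 5.82-fold higher in liver (limma adjusted p = 0.000175). Dhcr7 averaged 11.36 ± 0.32 in control livers and 9.36 ± 0.07 in control kidneys (SD), or 4.00-fold (limma adjusted p = 0.000216). The Lss probe sets were 2.53-fold and 7.49-fold higher in liver (limma adjusted p = 0.00377 and 0.00807), the second over dim and widely spread kidneys. Neither passed with the 3′ to 5′ distance of Gapdh, described further on, as a covariate (limma adjusted p = 0.0577 and 0.114). Mvd, at 7.08 ± 0.22 in control livers and 6.85 ± 0.16 in control kidneys (SD), overlapped between tissues (difference 0.23 ± 0.14 SE, limma adjusted p = 0.209), and so did Sqle (0.28 ± 0.31, limma adjusted p = 0.448).

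Arrays of the 2 tissues had unlike medians, so this comparison leans on their scaling. Centring each array on its median moved the median of all differences by 0.41 log2 units and the share of called probe sets that were higher in liver to 67%, against 43.3% as deposited. Quantile normalization moved them by 0.16 and to 54.2%. Mvd then passed, at 0.64 (limma adjusted p = 0.00836) after centring and 0.48 (0.0276) after quantile normalization, and all members stayed higher in liver.

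The order of the 4 groups differed between members. Fdps, Pmvk, Dhcr7 and both Lss probe sets had every liver above every kidney. In control rats alone the same 5 separated the tissues, all higher in liver, where 71.2% of all probe sets did so and 31% higher in liver. For Pmvk and Dhcr7 the order was control liver, TCE liver, control kidney and TCE kidney, with no overlap between neighbours. Mvd ran from TCE liver, at 7.87 ± 0.42, through control liver and control kidney, which overlapped, to TCE kidney, at 6.31 ± 0.45 (SD, n = 3 each). Sqle had neighbours that overlapped throughout, from 7.62 ± 0.56 in TCE liver to 6.55 ± 0.07 in TCE kidney (SD).

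Of 13 further genes measured along the same pathway, 3 averaged higher and 10 lower in TCE livers, with a median log2 difference of -0.09, and 0 passed limma's test. Acat2, which makes acetoacetyl-CoA at the entry, had -0.60 ± 0.22 (SE; limma adjusted p = 0.34). Mvk, which phosphorylates mevalonate before Pmvk, had -0.25 ± 0.16 (limma adjusted p = 0.528), and a second probe set of it -0.87. Msmo1, a sterol demethylating oxidase after Lss, had 0.47 ± 0.19 (limma adjusted p = 0.379), and thus leaned the same way as Mvd and Sqle. In kidney 5 were higher and 8 lower, with a median of -0.04 and 0 past the test. There Tm7sf2, a sterol reductase, had -0.32 ± 0.15, Ebp, a sterol isomerase, -0.10 ± 0.06, and Erg28, a scaffold of sterol enzymes, 0.21 ± 0.09 (SE; limma adjusted p from 0.353 to 0.504). For the liver TCE difference minus the kidney TCE difference 0 of the 13 passed. There Acat2 had -0.75 ± 0.27 and Msmo1 0.58 ± 0.25 (SE; limma adjusted p = 0.19 and 0.267). These counts and medians used each gene's probe set with the highest mean, and other probe sets could differ. In liver Sc5d had -0.06, but -0.40 and -0.46 on its others, and Idi1 -0.04, but 0.42. For the liver minus the kidney TCE difference Sc5d had 0.001, but -0.52 and -0.58, and Mvk 0.22, but -0.85.

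**Figure D4:**
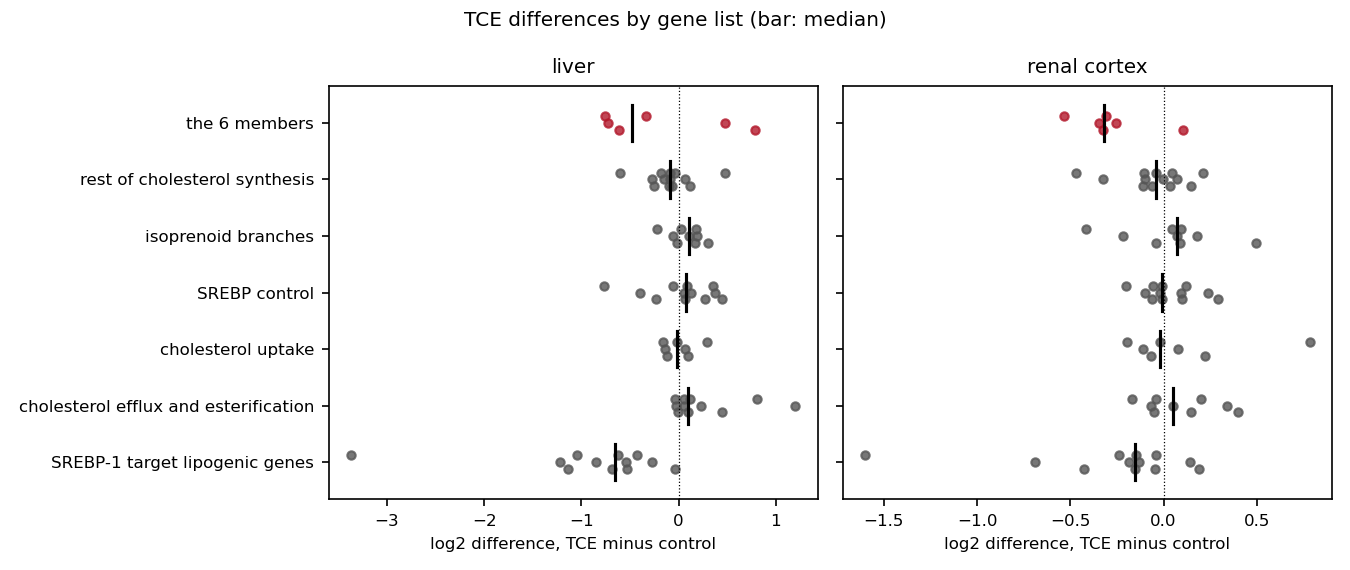
Log2 difference of TCE minus control for each measured gene of 7 lists, with a point per gene, a bar at the median, and a separate horizontal scale for each tissue. The median of the 6 members is -0.48 in liver and -0.32 in renal cortex, and that of the SREBP-1 target genes -0.66 and -0.15.

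In control rats, 12 of those 13 genes passed as higher in liver, with a median of 2.00 log2 units, and the exception was the sterol reductase Lbr at -0.27 ± 0.11 (SE; limma adjusted p = 0.0726). Nsdhl, which removes methyl groups from sterols, stood 4.78 ± 0.12 (SE) higher on both of its probe sets. Cyp51, lanosterol demethylase, had 3.24 ± 0.09, with 4.12 on a second probe set, and Ebp 3.18 ± 0.12 (SE; limma adjusted p from 1.64e-06 to 7.66e-06 for the 3 genes). Against these, Mvd and Sqle lay at the low end of the pathway, next to Lbr and Acat2 (0.62 ± 0.21 SE, limma adjusted p = 0.0457).

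**Figure D5:**
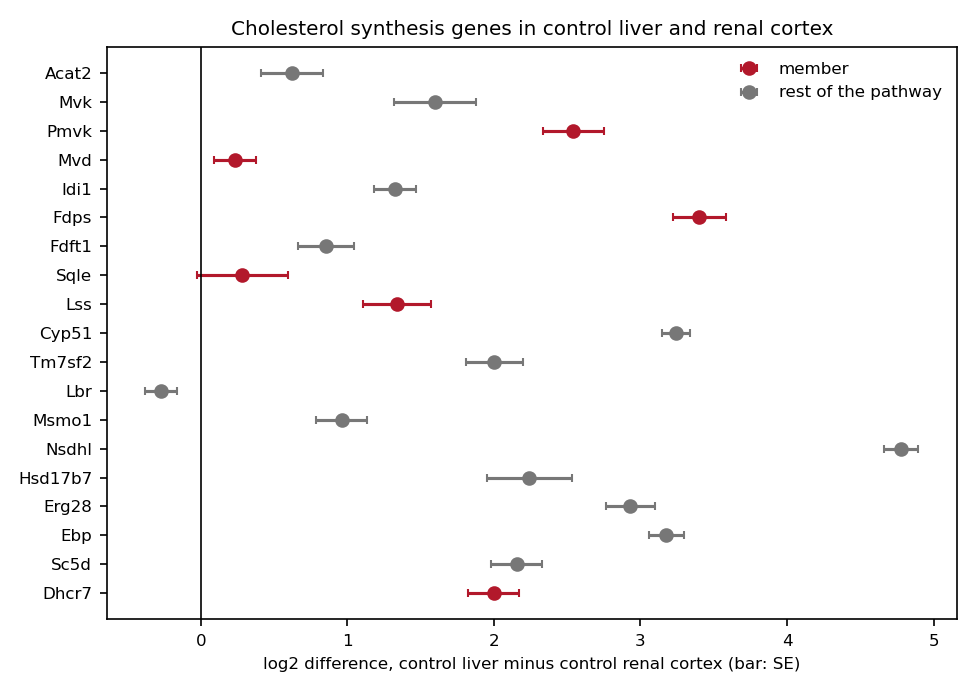
Log2 difference of control liver minus control renal cortex for the 6 members and 13 further genes of cholesterol synthesis, in the order of the pathway, with the SE as a bar. Fdps is highest among the members at 3.40, and Mvd and Sqle are nearest to 0 at 0.23 and 0.28.

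Of 12 measured genes that control SREBPs, 8 averaged higher and 4 lower in TCE livers, with a median of 0.08, and 0 passed. Mbtps1, the Golgi protease that makes the first cut in SREBPs, had 0.37 ± 0.07 (SE), Rnf145, a ligase that acts on Scap, 0.45 ± 0.13, and Srebf1, which encodes SREBP-1, 0.28 ± 0.09 (limma adjusted p = 0.154, 0.274 and 0.285). All 3 separated the livers, as 19.2% of all tested probe sets did, but they were named for having the smallest p of the 12. A second Srebf1 probe set gave -0.19. Insig1, itself an SREBP target, had 11.69, 12.09 and 11.34 in TCE livers, against 13.98, 11.79 and 11.65 in control livers. Control replicate 1 stood far above the other five, the liver that was also highest on Pmvk, Fdps, Lss and Dhcr7. In kidney 5 were higher and 7 lower, with a median of -0.01 and 0 past the test, and Rnf145 (0.29 ± 0.10 SE), Insig1 (-0.10 ± 0.06) and Insig2 (0.24 ± 0.15) had the smallest p (limma adjusted p from 0.298 to 0.5). For Insig2, which restrains SREBP release, the liver TCE difference minus the kidney TCE difference was -0.47 ± 0.23 (SE), and -0.91 on its second probe set.

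Other lists around cholesterol had medians within 0.11 of 0 in both tissues and 0 genes past limma's test for TCE. Of 7 uptake genes 3 were higher and 4 lower in TCE livers and the same in TCE kidneys. There Mylip, a ligase that marks lipoprotein receptors for breakdown, had 0.78 ± 0.25 (SE; limma adjusted p = 0.284). Its kidney groups did not overlap, as in 19.5% of all tested probe sets. Vldlr, among the uptake genes, had -0.16 ± 0.54 (SE) in liver on its probe set with the highest mean. Its other probe sets gave -0.75 (limma unadjusted p = 3.98e-05, not passing over all probe sets), -1.15 and 0.05. For the liver minus the kidney TCE difference Vldlr had -0.38, and -1.43, -1.49 and -0.21 on the others. Of 11 tested efflux and esterification genes 8 were higher and 3 lower in TCE livers, and of 9 tested in kidney 5 were higher and 4 lower. Cyp7a1, which starts bile acid synthesis, had 0.81 ± 0.75 in liver (SE; limma adjusted p = 0.668). Of 9 genes of isoprenoid branches 6 were higher and 3 lower in each tissue, and Nus1, a subunit of the enzyme that makes dolichol precursors, had 0.31 ± 0.06 in liver (SE; limma adjusted p = 0.17).

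Lipogenic genes driven by SREBP-1 make fatty acids and triglycerides. On the probe set with the highest mean, all 12 genes averaged lower in TCE livers, with a median of -0.66 and 0 past limma's test, although second probe sets of Gpam and Elovl6 gave 0.28 and 0.03, as did 10 of 12 in TCE kidneys, with a median of -0.15. Fasn, fatty acid synthase, had -0.85 ± 0.29 in liver and -0.24 ± 0.09 in kidney (SE; limma adjusted p = 0.315 and 0.339). It separated the groups in both tissues, as 19.2% of all tested probe sets did in liver and 19.5% in kidney. Earlier work on these data had already shown this list lower in liver, so it is no independent evidence.

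The 12 arrays had medians of 3.51 to 3.54 in liver and 3.88 to 3.96 in kidney, correlated at 0.993 to 0.997 within groups, and 0 pairs of arrays were identical. All 8 hepatocyte markers measured passed as higher in control liver, and 7 of 8 proximal tubule markers as higher in control kidney, as the tissue labels say. Of 5 adrenal cortex markers, a tissue beside the kidney that uses much cholesterol, Cyp11a1, Cyp11b1 and Nr5a1 sat at the lowest value in all groups, and the summed linear level was 22.7 to 24.5 in TCE tissues and 23.3 to 28.2 in control tissues. Among 6 adipocyte markers Lep was at the lowest value in all groups, and Adipoq and Plin1 were near it in liver, at 2.23 to 2.25. Cidec was the brightest of the 6, at 10.58 in TCE and 10.76 in control livers, and weighed most in their linear sum. That sum was 1505 to 1984 in TCE livers, against 1827 to 2402 in control livers. In kidney it was 799 to 1031 in TCE rats, against 859 to 1303 in control rats.

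Several such measures parted with treatment beside the members, as did 19.2% of all tested probe sets in liver and 19.5% in kidney. Sums of linear values lean on the brightest markers. The 4 erythroid markers summed to 10960 to 16480 in TCE livers, against 20000 to 25670 in control livers. Hbb was by far the brightest of them, and Ahsp was near the lowest value in each. The 7 mesenchymal and stellate markers summed to 5993 to 7409 in TCE livers, against 5334 to 5600 in control livers. Of these 5 averaged higher in TCE livers, among them the brightest, Col3a1 (12.26 against 11.96). The other 2, Lrat (8.45 against 8.61) and Acta2 (2.67 against 2.80), averaged lower. The 4 podocyte markers summed to 2003 to 2595 in TCE kidneys, against 1506 to 1728 in control kidneys, and the 5 macrophage markers to 353 to 402, against 277 to 306. RNA integrity can be read from Gapdh, whose control probe sets at the 3′ end stood above those at the 5′ end by 1.49 ± 0.25 log2 units in TCE livers and 0.81 ± 0.04 in control livers (SD, n = 3 each). An exact permutation test gave p = 0.1, two-sided, the least that 3 against 3 allows. In kidney that distance was 0.65 ± 0.19 in TCE and 0.97 ± 0.11 in control rats (SD; two-sided exact permutation p = 0.2). For Actb the same distance was 5.33 ± 0.31 in TCE livers and 4.64 ± 0.52 in control livers (SD; two-sided exact permutation p = 0.3), where the groups overlapped. It was 4.31 ± 0.09 in TCE kidneys and 4.48 ± 0.08 in control kidneys (SD; two-sided exact permutation p = 0.1), where they did not. The Gapdh distance was larger in every TCE liver (1.21 to 1.70) than in every control liver (0.78 to 0.86). As a covariate on 6 livers it therefore cannot be well told apart from treatment. With it added to the fit, the liver differences were -0.82 ± 0.64 for Pmvk, -0.38 ± 0.61 for Fdps and -0.85 ± 0.53 for Dhcr7 (SE). Mvd had 1.28 ± 0.61, Sqle 1.26 ± 0.95 and the Lss probe sets 0.32 ± 0.73 and -0.55 ± 0.57 (SE). The kidney differences were then -0.35 for Pmvk, 0.20 for Fdps, -0.17 for Dhcr7, -0.17 for Mvd and -0.26 for Sqle, and the Lss probe sets had -0.27 and 0.17. The part of these markers in the member differences was not tested.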

How the data were processed

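Total RNA from liver and renal cortex was hybridised to GeneChip Rat Genome 230 2.0 arrays, per the labels' protocols. The deposited series table holds a log2 value per probe set and array, with affy and limma used upstream, per the submitters' processing notes. The background correction, the normalization and tool versions are not stated by any source at hand, and the log2 scale was inferred from a range of 2.17 to 16.49. GEO's annotation of the platform gave 20826 probe sets 1 symbol, 436 several and 9780 none, while 57 control probe sets were not tested.

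Groups came from the sample titles, in which the treated rats are called cases. All probe sets with a mean above the 40th percentile were fitted by lmFit and eBayes of limma 3.58.1 under R 4.3.3 (two-sided tests, Benjamini-Hochberg over all probe sets, threshold 0.05), on 6 arrays within a tissue or within controls and on 12 for the difference of effects. SE is limma's moderated SE, and the number of arrays limits precision. Per the labels' protocols both tissues came from the same 6 rats; no label ties a liver to its kidney, so fits across tissues treat arrays as independent. For other lists a gene was read by its probe set with the highest mean. Named were all members, per list the 3 genes with the smallest p in each TCE comparison or the largest tissue difference, and the 5 genes most correlated with the members; some of these are given only in counts. Acat2 in the tissue comparison, Lbr, further probe sets and the covariate values were chosen after their values were seen. The members and lists were chosen with earlier results of these data known. Fits were tested on simulated data.

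Alternatives were other filters, 1 probe set a gene or their mean, quantile normalization, median centring, trend and robust variances, array weights, the Gapdh gap as a covariate, a replicate block, all 12 arrays, and leaving out each array.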

Additional observations from a re-analysis of the deposited data

Results flagged for a closer look

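Me1, cytosolic malic enzyme, which supplies NADPH for lipid synthesis and is among the SREBP-1 target genes, is given for a closer look because its TCE difference was unlike in the 2 tissues by the test of that difference. Its log2 values were 10.01, 10.06 and 9.83 in TCE livers, against 11.36, 10.94 and 11.26 in control livers. They were 12.17, 12.31 and 12.22 in TCE kidneys, against 12.22, 12.27 and 12.34 in control kidneys. The liver difference lay 1.18 ± 0.16 (SE) log2 units below the kidney difference (-1.18, limma adjusted p = 0.0135 over 18609 probe sets), and a second probe set gave -1.37. The call ended with the Gapdh covariate (-1.53, limma adjusted p = 0.716), with a replicate block (-1.18, 0.0508) and without kidney control replicate 1 (-1.15, 0.0502). Over the other settings and left-out arrays the Me1 value kept its sign and passed. Among the 7 member probe sets 0 met that test.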

How the results depend on the processing

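The number of probe sets past the test was 0 for TCE in liver, but 21 with no filter and 339 with all 12 arrays, and 0 to 1 without single arrays (1 without liver TCE replicate 1). In kidney it was 0, but 5 with no filter, 1 with the filter at the 60th percentile and 26 with all 12 arrays, and 0 without any single array. With all 12 arrays Dhcr7 passed in liver, at -0.76 (limma adjusted p = 0.0393). For the difference of effects the count was 198, against 57 with 1 probe set per gene, 68 with the mean of probe sets, 448 with array weights and 0 with the Gapdh gap as a covariate, and 40 (without kidney control replicate 1) to 411 (without liver TCE replicate 3) without single arrays. For control liver against control kidney it was 11513, against 7308 with 1 probe set per gene and 7140 with their mean, where fewer features are tested, and 10256 to 11089 without single arrays.

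With the Gapdh covariate, which itself parted the TCE from the control livers, the median over the member genes was -0.033 in liver. It was -0.22 in kidney and 0.016 for the difference of effects. That last value turned its sign there, and also without liver control replicate 1, at 0.018. Without single arrays these medians ran from -0.63 to -0.25 in liver, -0.36 to -0.26 in kidney, -0.35 to 0.018 for the difference of effects and 1.45 to 1.79 between control tissues. The last was 2.06 with the mean of probe sets and 2.08 with centred arrays. The brighter Lss probe set turned to 0.32 in liver and 0.49 for the difference of effects with the covariate, to 0.074 for the difference of effects with array weights, and there to 0.12 without liver TCE replicate 1 and 0.18 without liver control replicate 1 (-0.23 to 0.18 without single arrays). The dimmer turned to -0.45 in kidney without kidney control replicate 1 (-0.45 to 0.61 without single arrays). Both Lss calls between control tissues ended with the covariate (limma adjusted p = 0.0577 and 0.114). Member probe sets kept their direction in 115 of 116 recomputed values in liver, 114 of 115 in kidney, 146 of 150 for the difference of effects and 115 of 115 between control tissues. The causes were not tested.

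Replicate numbers were checked as pairs. Deviations from group means of same-numbered arrays correlated at -0.08 to 0.08, and 0 of 12 pairs exceeded 0.1. Between liver and kidney, where 1 rat could give both, same-numbered arrays had 0.01 to 0.08 in TCE rats and 0.04 to 0.07 in controls. Unlike-numbered arrays there had -0.07 to 0.05 in TCE rats and -0.05 to 0.001 in controls. These weak correlations do not settle whether the numbers pair samples. With a replicate block the difference of effects counted 50, and the block changed no other count by over 1.5 times. The probe sets of Lss had no separate value where a gene's probe sets were averaged.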
